A study of Mus musculus with 20 samples.

Results

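Calcium cycling and cardiac ion channels were followed through 8 genes: Ryr2, Casq2, Atp2a2, Pln, Cacna1c, Slc8a1, Kcnj3 and Kcnj5. Their probe sets were taken by gene symbol from the platform annotation, whatever their signal. This gave 9 probe sets of the 12422 compared, for 7 of the 8 genes. Slc8a1 had 3 probe sets and the other genes 1 each, and no probe set carried the symbol Pln alone or with others. The samples were whole hearts of mouse fetuses, measured on 20 Affymetrix MG-U74Av2 arrays. The dams were gavaged with corn oil (8 control arrays) or with TCDD at 1.5, 3 or 6 µg/kg (4 arrays each). Hearts were taken on gestation day 17.5. Dosing was on gestation day 14.5 for 19 of the arrays. The label of array 1 at 1.5 µg/kg writes that day in another form, which was not used. The labels give no strain or genotype and leave unsaid how many hearts or litters stand behind an array, so a p here reflects the scatter of these arrays alone, which may be technical.

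In a heart muscle cell the L-type calcium channel, whose pore is Cacna1c, lets in calcium that opens the ryanodine receptor Ryr2 of the sarcoplasmic reticulum. Calcium stored there on calsequestrin (Casq2) is released, the muscle contracts, and the pump SERCA2 (Atp2a2) takes it back under restraint by phospholamban (Pln), while the sodium-calcium exchanger NCX1 (Slc8a1) expels the rest. Kcnj3 (GIRK1) and Kcnj5 (GIRK4) form the G protein-gated potassium channel of the atria and pacemaker tissue, which opens when muscarinic receptors are stimulated and slows the heart. TCDD is a dioxin that activates the aryl hydrocarbon receptor (AhR), a transcription factor whose binding sites contain the core letters GCGTG.

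The promoter stretches below show the only copies of that core found in the promoters of Casq2, Ryr2 and Slc8a1, and Kcnj5 without one. They come from RefSeq promoters of build GRCm38.p6, read 5′ to 3′ on the strand of the gene, and capitals mark GCGTG or its reverse complement CACGC.
Casq2 chr3:102086244-102086298 (plus strand): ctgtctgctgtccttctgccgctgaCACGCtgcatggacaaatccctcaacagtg
Ryr2 chr13:12106989-12107043 (minus strand): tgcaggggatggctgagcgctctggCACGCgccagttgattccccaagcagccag
Slc8a1 chr17:81738601-81738637 (minus strand): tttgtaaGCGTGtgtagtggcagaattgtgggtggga
Kcnj5 chr9:32344400-32344454 (minus strand): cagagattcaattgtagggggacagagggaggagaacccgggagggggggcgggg

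Over the 250 bases before each start, searched on both strands, the core stood in 9250 of 32851 RefSeq promoters (28.2%). It stood in 4 of the 9 promoters listed for 7 of the genes: those of Casq2, Ryr2, Slc8a1 and Kcnj3. The promoter listed for Kcnj3 (chromosome 2, 55435720 to 55436019) lies inside the gene span given below, and so do the 3 of Cacna1c in theirs. The copy in the Kcnj3 promoter is not shown above. None was found in the promoters of Kcnj5 and Pln or in the 3 of Cacna1c; Atp2a2 was not matched. Such a match describes letters only and shows no binding.

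The arrays had been scaled alike, with a 2% trimmed mean between 500.28 and 500.341 and median signals between 170.95 and 210.0. Signal correlated between arrays at 0.957 to 0.986 on the log2 scale. Cardiomyocyte markers were present: 11 of 12 had a probe set, and their summed signal ran from 144958 to 161358 in controls. From low to high dose that sum ran from 124151 to 162122, from 133518 to 150018 and from 147299 to 175689, so the lower doses reached below the controls. The β-actin 3′ to middle ratio, a sign of RNA quality, was 0.89 or more (log2) in controls 1, 2 and 6 and in array 4 of 6 µg/kg, and 0.61 or less in all others. The same ratio for Gapdh did not set these arrays apart. It was -0.27, -0.16, -0.27 and -0.28 in them and ran from -0.55 (array 4 of 3 µg/kg) to -0.08 in the others. Controls 1 to 4 differed from controls 5 to 8 at 127 of 8097 probe sets (1.57%; 0 of them members), and the series' design text speaks of 4 replicates per group. Summed leukocyte markers (10 of 10 with a probe set) ran from 2684.0 to 3183.0 in controls and from 3506.8 to 4162.9 over all TCDD arrays, without overlap. Summed neuronal and neural crest markers (8 of 10) ran from 2663.9 to 3419.7 in controls and from 3521.0 to 4266.1 at 6 µg/kg. Ptprc, Snap25, Nefl and Nefm, defining markers of those cells, stayed too low to be kept. Of the 9 leukocyte markers kept, 9 were higher at each dose. From low to high dose, 3, 7 and 7 had an unadjusted limma p under 0.05. Of all kept probe sets, 12.6%, 5.72% and 9.15% did. Of the 5 neuronal and neural crest markers kept, 4 were higher at 6 µg/kg and 2 had such a p. After adjustment 0 markers of either list passed at those doses. What the marker differences contribute to any result below was not tested.

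No calcium cycling or channel gene passed the test at any dose. Values were compared as log2(signal + 32) in 1 limma fit over all arrays, with Benjamini-Hochberg adjustment over the 8097 probe sets that reached the 40th percentile of their array on at least 4 arrays, and with a threshold of 0.05. Of the 9 probe sets 8 were kept, and Kcnj3 fell below that level. The count of kept probe sets called was 0 of 8 at 1.5 µg/kg, where 0.210% of all kept probe sets passed. It was 0 of 8 at 3 µg/kg, where 0.0247% passed, and 0 of 8 at 6 µg/kg, where 0.0741% passed. For the linear trend over dose it was 0 of 8 against 0.0618%, for all TCDD arrays together 0 of 8 against 0.0494%, and for the joint F test of the 3 doses 0 of 8 against 0.185%. With limma's unadjusted p under 0.05, 1 member stood out at 1.5 µg/kg (Ryr2), 0 did at 3 µg/kg, and at 6 µg/kg 1 did (Kcnj5). Over all kept probe sets 1021, 463 and 741 did so, which is 12.6%, 5.72% and 9.15%.

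**Figure D1:**
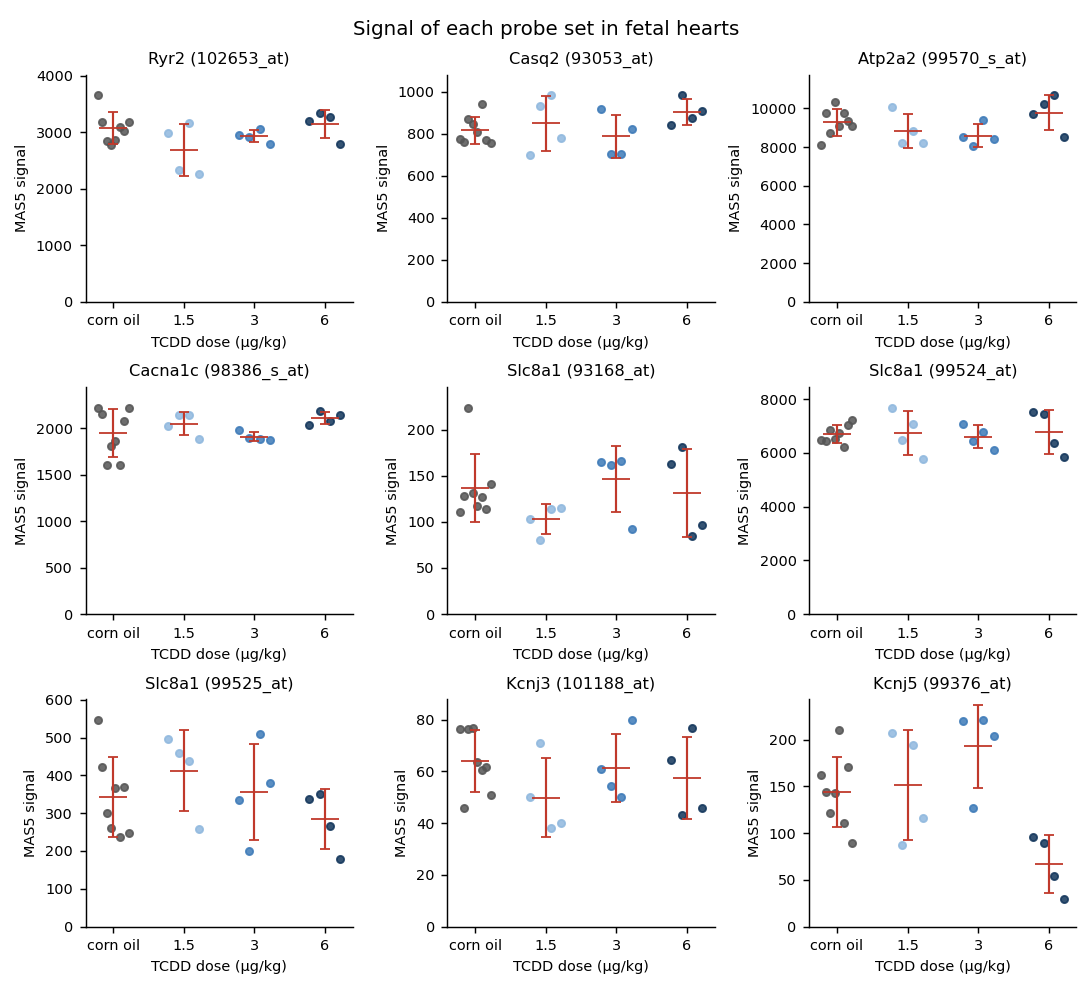
MAS5 signal (linear, from 0) of the 9 probe sets on each array, by TCDD dose in µg/kg; points are arrays, and red bars give the mean ± SD (n = 8 for corn oil, 4 per dose). For every gene each dose overlaps the controls, and 3 of the 4 Kcnj5 arrays at 6 µg/kg lie below all controls.

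Ryr2 (chromosome 13, 11553099 to 12106945, minus strand), the release channel of the sarcoplasmic reticulum, gave signals from 2780.2 to 3659.4 in controls with a median of 3064.1. At 1.5 µg/kg the 4 arrays gave 2989.2, 2333.2, 3161.2 and 2268.6. Arrays 2 and 4 of that dose lay below every control and the other two within the control range. At 3 µg/kg they gave 2951.6, 2926.7, 3065.0 and 2800.8, and at 6 µg/kg 3199.7, 3335.1, 3270.2 and 2790.8, all inside the control range. Control arrays averaged 3079 ± 280 (SD, n = 8), and those of 1.5 µg/kg 2688 ± 453 (SD, n = 4). The log2 change at 1.5 µg/kg was -0.20 with a 95% interval of -0.39 to -0.02 (limma adjusted p = 0.357). It was -0.29 without array 3 of that dose and -0.13 without array 4. At 3 and 6 µg/kg the log2 change was -0.06 and 0.03. Neither higher dose had a mean as low as that of 1.5 µg/kg. Between 6 and 1.5 µg/kg, compared after the data had been seen, the log2 difference was 0.24 (limma adjusted p = 0.277). In that comparison 0.346% of all kept probe sets passed.

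Casq2 (chromosome 3, 102086415 to 102146514), the calcium-binding protein of the store, ran from 754.9 to 942.8 in controls with a median signal of 791.15. The arrays gave 701.0, 933.4, 983.7 and 782.4 at 1.5 µg/kg. Those of 3 µg/kg gave 917.8, 704.8, 704.8 and 822.8, and those of 6 µg/kg gave 840.1, 984.1, 873.1 and 910.8. Every dose overlapped the controls, and 6 µg/kg had the highest mean, 902 ± 61.9 (SD, n = 4) against 816 ± 65.8 (SD, n = 8). Its log2 change there was 0.14 with a 95% interval of -0.06 to 0.34 (limma adjusted p = 0.659). At 1.5 and 3 µg/kg the log2 changes were 0.05 and -0.05.

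Atp2a2 (chromosome 5, 122453513 to 122502225), the SERCA2 pump, ran from 8089.3 to 10305.1 in controls with a median signal of 9236.3. The arrays gave 10082.3, 8206.1, 8814.7 and 8209.5 at 1.5 µg/kg. Those of 3 µg/kg gave 8522.2, 8047.9, 9397.9 and 8402.2, and those of 6 µg/kg gave 9684.4, 10226.0, 10680.7 and 8541.8. One value at 3 µg/kg fell just under the controls and one at 6 µg/kg just over them. The log2 changes were -0.07, -0.11 and 0.07 from low to high dose (limma adjusted p = 0.740, 0.929 and 0.785). At 6 µg/kg the 95% interval of the fold ran from 0.942 to 1.18. This probe set has the _s_at suffix, which marks probe sets that can match more than 1 transcript. Pln (chromosome 10, 53337686 to 53345999), the inhibitor of the pump, had no probe set and gives no value.

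Cacna1c (chromosome 6, 118587240 to 119197384), the pore of the L-type channel, ran from 1600.1 to 2221.6 in controls with a median signal of 1969.0. The arrays gave 2028.5, 2144.4, 2140.6 and 1882.1 at 1.5 µg/kg. Those of 3 µg/kg gave 1978.9, 1890.3, 1880.6 and 1877.5, and those of 6 µg/kg gave 2032.4, 2183.5, 2072.9 and 2145.0. Every dosed array lay inside the control range. The log2 change at 6 µg/kg was 0.13 with a 95% interval of -0.06 to 0.31 (limma adjusted p = 0.667), after 0.08 and -0.02 at the lower doses. Its probe set also has the _s_at suffix.

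Slc8a1 (chromosome 17, 81373105 to 81738387, minus strand), the sodium-calcium exchanger, was read by 3 probe sets. The bright one, 99524_at, ran from 6226.0 to 7224.8 in controls with a median of 6618.95. Its arrays gave 7685.9, 6462.1, 7064.6 and 5763.1 at 1.5 µg/kg. Those of 3 µg/kg gave 7083.1, 6435.7, 6795.4 and 6115.2, and those of 6 µg/kg gave 7506.6, 7442.0, 6376.9 and 5847.8. Single arrays lay on either side of the controls at 1.5 and 6 µg/kg, so the dosed groups were spread more widely than shifted. The log2 changes were 0.01, -0.02 and 0.02, and the fold at 6 µg/kg had a 95% interval of 0.900 to 1.14 (limma adjusted p = 0.966).

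The means of the dimmer probe sets of Slc8a1 differed from the controls in opposite directions at 1.5 µg/kg, within overlapping ranges, and both were variable. Probe set 99525_at averaged 344 ± 105 (SD, n = 8) in controls and 412 ± 106, 356 ± 128 and 284 ± 79.0 (SD, n = 4 each) from low to high dose. Its log2 change was 0.25 at 1.5 µg/kg and -0.24 at 6 µg/kg, each with a standard error of 0.23 (limma adjusted p = 0.688 and 0.759). The former was 0.12 against controls 1 to 4 alone and 0.45 without array 4 of that dose. The latter was -0.06 without array 4 of 6 µg/kg and 0.05 with the 4 arrays whose β-actin ratio was high left out. Probe set 93168_at averaged 136 ± 36.7 (SD, n = 8) in controls and 103 ± 16.1, 146 ± 36.0 and 131 ± 47.7 (SD, n = 4 each). Its log2 change was -0.30 at 1.5 µg/kg and -0.07 at 6 µg/kg, each with a standard error of 0.19 (limma adjusted p = 0.528 and 0.930). Across the 20 arrays the bright probe set correlated with 99525_at at 0.41 and with 93168_at at 0.43, while the dim pair correlated at -0.12. These coefficients describe arrays that share their scaling.

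**Figure D2:**
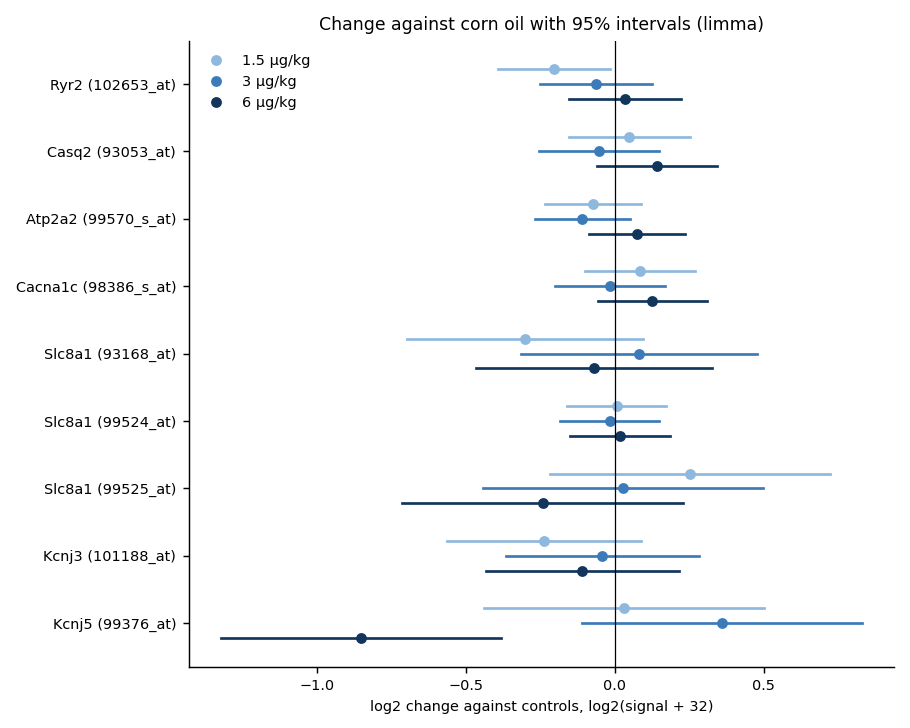
Log2 change against controls on the log2(signal + 32) scale for each probe set, with 95% limma intervals, at 1.5, 3 and 6 µg/kg; Kcnj3 comes from the fit without the filter. The intervals of all calcium cycling genes except Ryr2 at 1.5 µg/kg include 0, as do those of Kcnj3, and Kcnj5 at 6 µg/kg lies at -0.85.

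Kcnj5 (chromosome 9, 32314706 to 32344380, minus strand), the GIRK4 subunit, had the lowest signals at 6 µg/kg: 96.1, 89.1, 54.3 and 29.7. Controls ran from 89.2 to 210.0 with a median of 143.1. The arrays gave 207.5, 87.5, 194.0 and 116.5 at 1.5 µg/kg and 219.5, 127.1, 220.9 and 204.2 at 3 µg/kg. Of the 4 arrays at 6 µg/kg, 3 lay below every control, though the value of 89.1 is all but equal to the lowest control, and array 1 lay within their range. For 11.1% of all kept probe sets at least 2 of the 4 arrays of that dose lay below all controls. At 3 µg/kg 2 arrays lay above every control, and all 4 arrays of 6 µg/kg lay below all 4 of 3 µg/kg. How many kept probe sets separated these doses in that way was not counted, and the pair was picked after the data had been seen. For 6 minus 3 µg/kg, 11.6% of all kept probe sets had an unadjusted limma p under 0.05. Means were 144 ± 37.8 (SD, n = 8) in controls and 151 ± 58.5, 193 ± 44.5 and 67.3 ± 31.0 (SD, n = 4 each) from low to high dose. The order of the means was thus 6 µg/kg, controls, 1.5 µg/kg and 3 µg/kg, and the ranges of the latter groups overlapped.

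The log2 changes of Kcnj5 were 0.03, 0.36 and -0.85, with a standard error of 0.23. At 6 µg/kg the fold was 0.554 on the scale with the added constant, with a 95% interval of 0.399 to 0.767. The unadjusted limma p was 0.00107, rank 37 of 8097, and the adjusted p was 0.234, so it did not pass. Over the settings tried other than leaving out single arrays, the adjusted p of that change lay between 0.0802 and 0.886, and without single arrays between 0.156 and 0.530. Over dose the slope was -0.12 per µg/kg (limma adjusted p = 0.562; the slope was -0.08 without array 4 of 6 µg/kg), and the joint F test gave an adjusted limma p of 0.118.

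Between doses, 6 minus 1.5 µg/kg gave -0.88 for Kcnj5 (limma adjusted p = 0.107), where 0.346% of probe sets passed. The difference of 6 minus 3 µg/kg was the widest, -1.21 with a 95% interval of -1.76 to -0.67 (limma adjusted p = 0.149), where 0.0371% passed. With array weights, which give less weight to arrays that scatter more, the latter was -1.07 and passed (limma adjusted p = 0.0222). In that setting 167 of the 8097 probe sets passed for 6 minus 3 µg/kg, against 3 in the main fit. Both comparisons between doses were chosen after the data had been seen, and both share the arrays of 6 µg/kg with the comparison against controls.

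The low end of Kcnj5 at 6 µg/kg was array 4, with a signal of 29.7 and a β-actin ratio of 1.02 (log2), the only TCDD array among those with a high ratio. Without the 4 arrays of high ratio, the log2 change at 6 µg/kg was -0.66 (limma adjusted p = 0.503). Against controls 1 to 4 alone it was -0.87 and against controls 5 to 8 alone -0.84, with adjusted limma p of 0.0859 and 0.886. The group means lay within or below the range of the array medians, and the size of the change moved with the added constant: -1.18 with 1 and -0.55 with 100. RNA came from whole hearts, in which fewer cells of a type and less RNA per cell cannot be told apart. Summed atrial markers (7 of 8 with a probe set) ran from 33621.5 to 41355.6 in controls and from 35657.9 to 39974.6 at 6 µg/kg. Of the 6 kept, 3 were higher and 3 lower there; 0 passed limma's adjusted threshold and 2 had an unadjusted p under 0.05. The 3 brightest, which make up most of the sum, are the atrial myosin light chains Myl7 and Myl4 and the natriuretic peptide Nppa, with log2 changes of 0.07 ± 0.07, -0.02 ± 0.09 and -0.04 ± 0.09 (SE); the signs of Myl4 and Nppa turned under other control sets. Pam and Nr2f2, named after their values were seen, had 0.79 ± 0.23 and 0.55 ± 0.18 (SE; limma adjusted p = 0.270 and 0.357). The part of these differences in the Kcnj5 value was not tested.

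Kcnj3 (chromosome 2, 55411798 to 55598145), the GIRK1 partner, gave signals near the bottom of the arrays, from 45.7 to 76.8 in controls with a median of 62.7. The arrays gave 50.1, 71.2, 38.1 and 40.1 at 1.5 µg/kg. Those of 3 µg/kg gave 60.8, 54.5, 50.0 and 79.9, and those of 6 µg/kg gave 64.3, 43.0, 76.8 and 45.8. Every dose overlapped the controls. Fitted without the filter, its log2 changes were -0.24, -0.04 and -0.11 with a standard error of 0.16 (limma adjusted p = 0.645, 0.995 and 0.861). Its correlation with Kcnj5 over the 20 arrays was 0.05. The 95% interval of its log2 change at 6 µg/kg ran from -0.43 to 0.22.

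The precision differed between members. The residual SD within groups was 0.12 for Atp2a2 and for the bright Slc8a1 probe set, 0.14 for Ryr2 and Cacna1c and 0.15 for Casq2 (log2). For Kcnj5 it was 0.39, for the dimmer Slc8a1 probe sets 93168_at and 99525_at 0.31 and 0.42, and over all kept probe sets the median was 0.23. No kept member had all 4 arrays of a dose below all 8 controls, as 0.395%, 0.222% and 0.358% of kept probe sets had from low to high dose, or above them, as 1.06%, 0.321% and 0.494% had. At least 2 of 4 arrays lay below all controls for 2, 1 and 2 of the 8 kept members from low to high dose, and for 12.1%, 7.84% and 11.1% of all kept probe sets.

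Ratios within an array set the members of the cycle beside one another. The log2 ratio of Atp2a2 to Slc8a1 (99524_at), uptake into the store over extrusion, lay -0.08 ± 0.08, -0.09 ± 0.10 and 0.06 ± 0.16 (SD, n = 4 each) from the control mean, where the control SD was 0.14 (n = 8). The ratio of Ryr2 to Atp2a2, release over uptake, lay -0.13, 0.05 and -0.04 from it (control SD 0.21). Ryr2 to Casq2 lay -0.25, -0.01 and -0.11 from it (control SD 0.20), and Cacna1c to Slc8a1 0.08, 0.00 and 0.11 (control SD 0.18). Apart from the ratio of Ryr2 to Casq2 at 1.5 µg/kg, each mean was less than 1 control SD from the controls. These are descriptions, with no test.

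The genes around the members were followed through 7 lists with 148 genes, of which 99 had a probe set and 76 were tested, 1 probe set per gene. Of the 76, 0 passed at any dose. In the store list, 6 of 13 genes were higher and 7 lower at 1.5 µg/kg, and 8 higher and 5 lower at 6 µg/kg, with median log2 changes of -0.03 and 0.07. Over all 6099 genes the medians were 0.01 and -0.01, and 51.7% and 48.5% were higher. Canx, a chaperone of the reticulum, had 0.50 ± 0.18 (log2 change ± SE) at 6 µg/kg, and the SERCA3 pump Atp2a3 0.37 ± 0.13 at 1.5 µg/kg. S100a1, which tunes the ryanodine receptor and SERCA2, had -0.35 ± 0.13 at 1.5 µg/kg, where Fkbp1b, which steadies the ryanodine receptor, had 0.21 ± 0.10.

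Of the genes for calcium entry and extrusion at the cell membrane, 8 of 9 were higher at 1.5 µg/kg, while 5 were at 3 µg/kg and 3 were at 6 µg/kg; the median log2 changes were 0.09, 0.06 and -0.02. Cacna2d1, an auxiliary subunit of the L-type channel, had 0.42 ± 0.19 at 1.5 µg/kg (log2 change ± SE) and the T-type channel Cacna1g 0.25 ± 0.19. Caveolin Cav3 had -0.12 ± 0.07 and the cation channel Trpc1 0.20 ± 0.17 at that dose. In the calcium-dependent and adrenergic signalling list 8 of 17 genes were higher and 9 lower at 1.5 µg/kg and again at 3 µg/kg (medians -0.03 and -0.01), and 9 and 8 at 6 µg/kg (median 0.02). There the protein kinase A subunit Prkar1a had 0.16 ± 0.06, the adenylyl cyclase Adcy6 -0.29 ± 0.12 and the calcineurin subunit Ppp3r1 -0.32 ± 0.12. Gnas, the stimulatory G protein, had its smallest p at 3 µg/kg, at -0.15 ± 0.09.

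**Figure D3:**
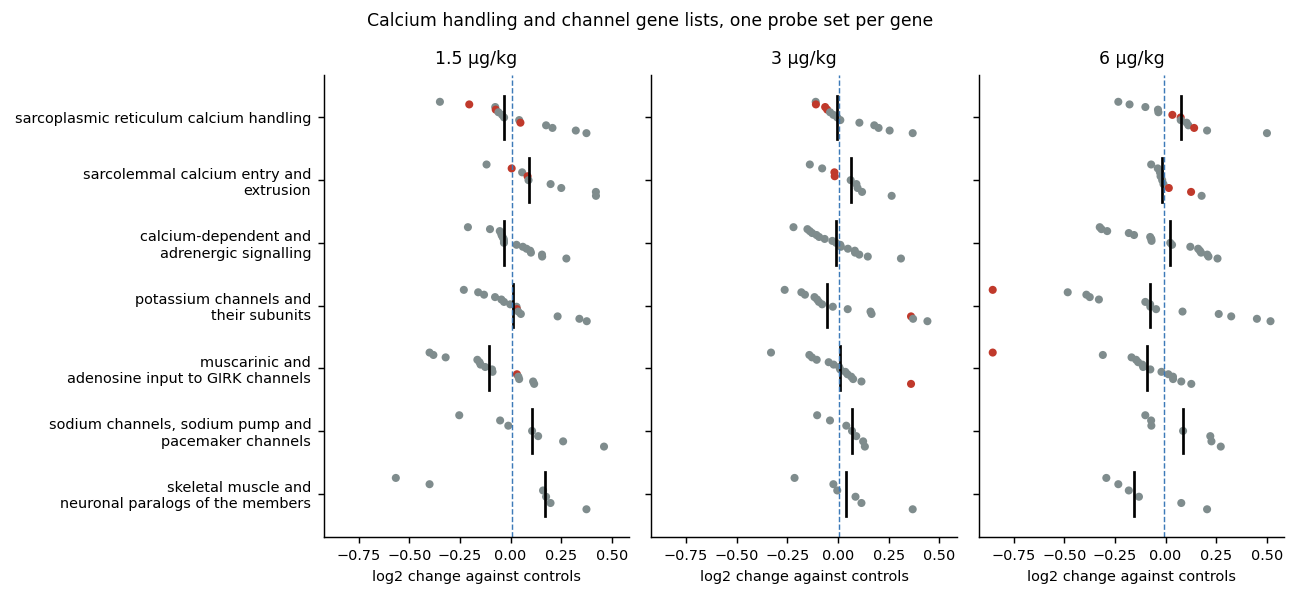
Log2 change against controls of each gene in the 7 lists (rows) at 1.5, 3 and 6 µg/kg; red points are genes named in the opening, black bars the list medians, and the dashed line the median of all 6099 genes. The list medians lie between -0.16 and 0.17, and Kcnj5 is the lowest point at 6 µg/kg.

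Among the 7 lists, which leave out the cell type markers, potassium channels and their subunits had the most genes with an unadjusted p under 0.05 at 6 µg/kg. Of 14 tested, 5 were higher and 9 lower, with a median log2 change of -0.08, and 6 had such a p; 0 passed after adjustment. At 1.5 µg/kg 7 were higher and 7 lower with 0 such p, and at 3 µg/kg 6 and 8 with 1. Besides Kcnj5 the lower ones were Kcna5, Kcnj11, Kcnj8 and Abcc9, and the higher one was Kcnj4, an inward rectifier. Against the 9.15% of all probe sets with an unadjusted p under 0.05 at this dose, the share is a description and was not tested.

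Kcna5, the pore of the ultrarapid delayed rectifier, ran from 379.6 to 560.9 in controls and gave 344.4, 323.9, 371.6 and 344.2 at 6 µg/kg. All 4 of these arrays lay below all 8 controls, as 0.358% of kept probe sets did. Means were 468 ± 70.8 (SD, n = 8) in controls and 463 ± 27.0, 412 ± 49.0 and 346 ± 19.6 (SD, n = 4 each) from low to high dose. The log2 change at 6 µg/kg was -0.39 ± 0.11 (SE; limma adjusted p = 0.244). With controls 1 to 4 as the only controls, the log2 change was -0.47 and passed (limma adjusted p = 0.0463). In that setting 187 probe sets passed at 6 µg/kg, where 6 did in the main fit. The unadjusted limma p of Kcna5 was 0.00095 there and 0.0015 in the main fit. Using controls 5 to 8 instead gave a log2 change of -0.31 (limma adjusted p = 0.914).

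Kcnj8, Kcnj11 and Abcc9 encode pore and sulfonylurea receptor subunits of ATP-sensitive potassium channels. Kcnj11 averaged 434 ± 90.6 (SD, n = 8) among controls, against 304 ± 88.8 (SD, n = 4) for 6 µg/kg and 576 ± 195 and 500 ± 168 (SD, n = 4 each) at 1.5 and 3 µg/kg. Its log2 change at 6 µg/kg was -0.48 ± 0.22 (SE; limma adjusted p = 0.516). Kcnj8 averaged 367 ± 45.8 (SD, n = 8) in controls and 307 ± 31.4, 300 ± 37.0 and 286 ± 49.2 (SD, n = 4 each) with dose, at -0.33 ± 0.12 (SE) for 6 µg/kg (limma adjusted p = 0.428). Abcc9, named after its values were seen, gave 864.3, 781.4, 875.8 and 618.1 at 6 µg/kg, and its lowest control was 876.1. All 4 arrays lay below all controls, the highest by almost nothing, and the log2 change was -0.37 ± 0.15 (SE; limma adjusted p = 0.473). Kcnj4 averaged 132 ± 44.3 (SD, n = 8) among controls, against 191 ± 58.3 (SD, n = 4) for 6 µg/kg, with overlap, at 0.45 ± 0.19 (SE; limma adjusted p = 0.513). Smooth muscle markers, from a cell type that also uses such channels, summed to 9511.4 to 11703.2 in controls and 9345.6 to 10212.3 at 6 µg/kg (6 of 6 with a probe set). That sum is mostly Acta2. All 6 were lower at 6 µg/kg, with a median log2 change of -0.11, while 5 of 6 were higher at 1.5 µg/kg; 0 passed limma's adjusted threshold at 6 µg/kg and 2 had an unadjusted p under 0.05. The contractile proteins Smtn and Cnn1, named after their values were seen, had -0.66 ± 0.22 and -0.40 ± 0.15 (SE) there (limma adjusted p = 0.396 and 0.451). The remaining markers Acta2, Tagln, Des and Myh11 had smaller log2 changes of -0.06, -0.01, -0.08 and -0.14 at that dose. Endothelial markers summed to 3845.2 to 5315.7 in controls and 3765.5 to 4730.2 at 6 µg/kg (6 of 6), with 4 of 6 lower and 1 such p. With the 4 arrays whose β-actin ratio was high left out, the log2 change was -0.30 for Kcnj11 and -0.16 for Abcc9. The part of these cell type markers in the potassium channel values was not tested.

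**Figure D4:**
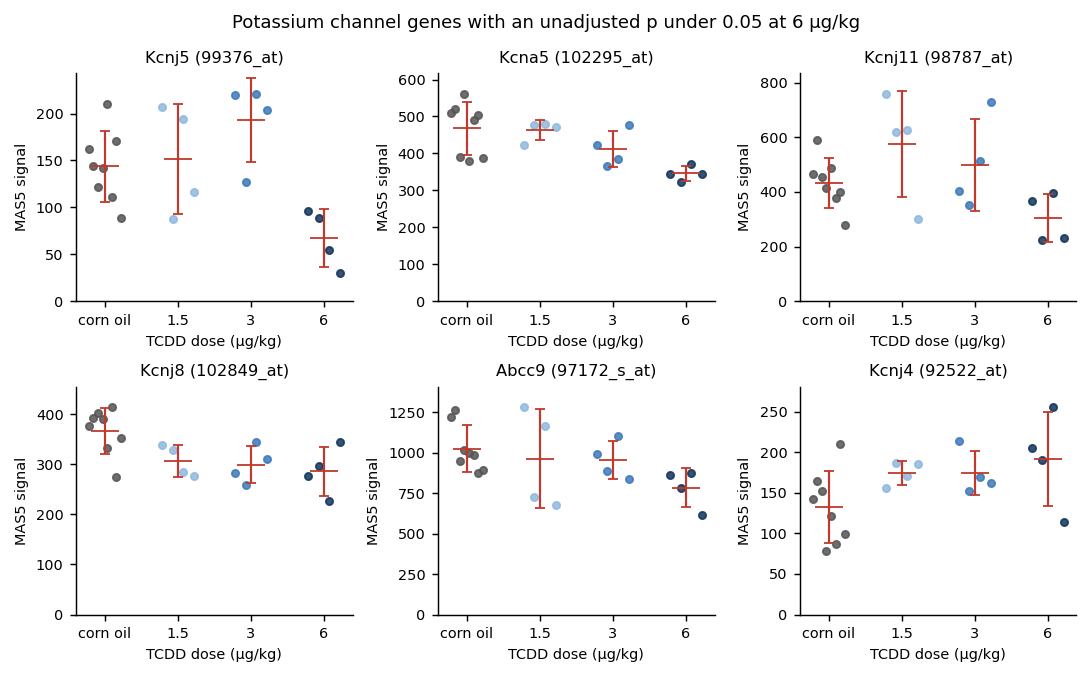
MAS5 signal (linear, from 0) of the 6 potassium channel genes with an unadjusted limma p under 0.05 at 6 µg/kg, on each array by TCDD dose in µg/kg; points are arrays, and red bars give the mean ± SD (n = 8 for corn oil, 4 per dose). Kcna5 and Abcc9 at 6 µg/kg lie below all controls, Kcnj4 overlaps them on the higher side, and none passed after adjustment.

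In the list of genes around the input to the GIRK channel, 5 of 14 were higher and 9 lower at 1.5 µg/kg (median log2 change -0.11). At 3 µg/kg 8 were higher and 6 lower (median 0.01), and at 6 µg/kg 5 and 9 (median -0.09). The G protein subunits Gng2 and Gnb5 had -0.38 ± 0.12 and -0.32 ± 0.11 (log2 change ± SE) at 1.5 µg/kg, with adjusted limma p of 0.205 and 0.230. The regulator of G protein signalling Rgs2 had -0.31 ± 0.14 at 6 µg/kg, and the related channel subunit Kcnj9 -0.40 ± 0.23 at 1.5 µg/kg. Of the sodium channel, sodium pump and pacemaker genes 4 of 7 were higher and 3 lower at 1.5 and again at 6 µg/kg, and 5 and 2 at 3 µg/kg. Among them the pump subunit Atp1b2 had 0.46 ± 0.20, the pacemaker channels Hcn2 and Hcn3 0.26 ± 0.12 and -0.25 ± 0.14, and the pump regulator Fxyd1 0.14 ± 0.10, each at 1.5 µg/kg. Of the skeletal muscle and neuronal paralogs, 4 of 6 were higher at 1.5 µg/kg (median 0.17), 3 at 3 µg/kg (median 0.04) and 2 at 6 µg/kg (median -0.16). The skeletal SERCA1 pump Atp2a1 had -0.57 ± 0.25 and the skeletal calsequestrin Casq1 0.16 ± 0.11 at 1.5 µg/kg, and the ryanodine receptor Ryr3 -0.23 ± 0.16 at 6 µg/kg. Of the 28 genes named from the lists, 12 moved by over 1.5 times under another setting, with 0 turning in sign. Against controls 1 to 4 and controls 5 to 8 alone, Ryr3 had -0.43 and -0.03, and Adcy6 -0.43 and -0.14.

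The genes whose log2 signal ran most like a member over the 20 arrays were named by Pearson's r, as a description of arrays that share scaling and quality. For Ryr2 they were Cbx2 (0.82), Isca1 (0.81) and Hbs1l (0.79), and for Casq2 Vim (0.77), Aldoart2 (0.77) and Cyp2a12 (0.75). For Atp2a2 they were Mdh2 (0.75), Immp1l (0.74) and Reep5 (0.74), and for Cacna1c Dido1 (0.78), Morc4 (0.78) and Zfp292 (0.78). For the bright Slc8a1 probe set they were Slc38a2 (0.84), Kif5b (0.84) and Stat6 (0.83), and for Kcnj5 Derl1 (0.75), Wdr26 (0.74) and Dnajb6 (0.74). No member appears among them. Between members, Kcnj5 ran closest to the dim Slc8a1 probe set 99525_at, at 0.63 over all arrays and 0.69 within groups, while Ryr2 ran with Atp2a2 at 0.40 and with the bright Slc8a1 probe set at 0.46.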

How the data were processed

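The deposited values are MAS5 intensity on a linear scale, per the submitters' processing notes; the MAS5 version is not given in the sources used here. RNA was extracted with Trizol, per the labels' protocols. The 66 control probe sets were left out. Arrays were brought to the same 2% trimmed mean, 500, and values taken as log2(signal + 32). Gene symbols came from the platform annotation (10833 probe sets with 1 symbol, 396 with several, 1193 with none), and 10817 of those with 1 symbol were found in RefSeq (GRCm38.p6), which gave gene positions; probe positions were not used. All 20 arrays entered 1 fit in limma 3.58.1 (R 4.3.3; lmFit, contrasts.fit, eBayes with an intensity trend), two-sided. The number of arrays limits the precision. In simulated data with normal noise, 200 of 8097 probe sets were changed 2-fold on the log2(signal + 32) scale. Of these, 89.5%, 95.0% and 92.5% were recovered from low to high dose. Those shares are averages over probe sets of all precisions, with more changed probe sets than were called here. They do not give the power for Kcnj5, whose residual SD was 0.39 against a median of 0.23. A 2-fold fall of a dim signal is also smaller on that scale. A list gene stands by its brightest probe set. Among the named list genes, Cav3, Gnas, Atp2a1 and Abcc9 were read by _s_at probe sets, as Atp2a2 and Cacna1c were. S100a1 was read by an _f_at probe set, and Kcnj9 and Hcn2 by _r_at ones. Named genes were all members' probe sets, 4 or fewer further genes from each list with the lowest joint F test p, each given for the dose with its smallest p, the 3 genes most like each member, and the 3 brightest of a marker list; others are said to be named after their values were seen. Members and lists were chosen with earlier results of these data known. Alternatives were quantile normalization, other added constants, no filter, either control set alone, the replicate number as a block, array weights, no arrays of high β-actin ratio, and leaving out each array. Plots were drawn with matplotlib 3.10.9.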

Additional observations from a re-analysis of the deposited data

Results flagged for a closer look

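In 36 groups of 4 or 8 arrays, 4 single values stood apart from the rest of their group by Dixon's test; chance flags about 1 group in 20. Cacna1c was highest in array 1 of 3 µg/kg, at a signal of 1978.9, where the other arrays lay within a narrow band. Probe set 93168_at of Slc8a1 was highest in control 3, at 223.9, and lowest in array 4 of 3 µg/kg, at 92.4. Kcnj5 was lowest in array 2 of 3 µg/kg, at 127.1, the array that brings that group nearest to 6 µg/kg.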

How the results depend on the processing

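With 4 arrays per dose and dim signals for Kcnj5 and Kcnj3, small changes were not detectable. Over the alternatives run, no member was called at any dose or for the trend, and leaving out single arrays called 0 as well. The exception between doses was Kcnj5 at 6 against 3 µg/kg with array weights (1 member called, limma adjusted p = 0.0222). Its change at 6 µg/kg stayed negative, from -1.18 to -0.55, and from -0.995 to -0.64 without single arrays. The counts over all probe sets moved far more, and the cause was not tested. They are given in the order 1.5, 3 and 6 µg/kg against controls, trend, 6 against 1.5, and 6 against 3 µg/kg, where they moved. Controls 1 to 4 alone gave 3, 4, 187, 165, 128 and 21, and 1 list gene (Kcna5). Controls 5 to 8 alone gave 153, 30, 3, 2, 175 and 39. Array weights gave 26, 4 and 10 for the doses and 181 and 167 between doses. With the 4 arrays of high β-actin ratio left out they were 30, 6, 3, 2, 137 and 66. Without the filter they were 8 at 1.5 µg/kg, 2 for the trend, 9 and 0 between doses and 80 between the control sets, and quantile normalization gave 44 for 6 against 1.5 µg/kg. Leaving out single arrays gave 4 to 51, 2 to 3, 4 to 12, 2 to 6, 2 to 71 and 0 to 6, and 25 to 178 between the control sets; the highest were without array 3 of 1.5 µg/kg (51), array 4 of 6 µg/kg (12) and control 6 (71).

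The replicate number did not pair the arrays: of 24 same-numbered pairs 5 correlated above 0.1 (range -0.22 to 0.21, median -0.01). The replicate block gave 2 calls at 1.5 µg/kg, 122 at 6 µg/kg, 130 for the trend, 99 for 6 against 1.5 and 22 for 6 against 3 µg/kg, none a member; its changes against controls rest on controls 1 to 4. Neither the block nor a single control set allows the control comparison.

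Of the signs that turned, the largest main change was -0.24, for Slc8a1 99525_at at 6 µg/kg. At 1.5 µg/kg Kcnj5 turned with quantile normalization (-0.021), and Slc8a1 99524_at with controls 5 to 8 (-0.019), array weights (-0.019) and without high actin ratios (-0.034). At 3 µg/kg Slc8a1 99524_at turned with quantile normalization (0.013) and with controls 1 to 4 or the block (0.0066), and 93168_at (-0.0026) and 99525_at (-0.11) with the latter pair. There Cacna1c turned without high actin ratios (0.0043) and Kcnj3 with controls 5 to 8 (0.024). At 6 µg/kg Slc8a1 99524_at turned with quantile normalization (-0.0050) and controls 5 to 8 (-0.0085), 93168_at with controls 5 to 8 (0.014) and array weights (0.046), and 99525_at without high actin ratios (0.048). Myl4 turned with controls 1 to 4 or the block (0.015), and Nppa with controls 5 to 8 (0.059) and without high actin ratios (0.035). Without single arrays the signs also turned within these ranges: at 1.5 µg/kg Casq2 -0.023 to 0.134, Kcnj5 -0.117 to 0.218 and Slc8a1 99524_at -0.060 to 0.078; at 3 µg/kg Cacna1c -0.054 to 0.012, Slc8a1 99524_at -0.052 to 0.018 and 99525_at -0.154 to 0.255, and Kcnj3 -0.133 to 0.016; at 6 µg/kg Slc8a1 93168_at -0.214 to 0.076 and 99524_at -0.034 to 0.085, Myl4 -0.059 to 0.039 and Nppa -0.100 to 0.0077.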
